A study of Mus musculus with 77 samples.

Results

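Mouse chromosome 2 is a large autosome that carries the HoxD homeobox cluster, 3 large groups of olfactory receptor genes and the imprinted Gnas and Nnat loci. Its replication in cloned embryos is described here from all 80-kb bins assigned to it in both deposited tables of single-cell replication states, 2271 of 32973 bins. The choice of bins used position alone and no measured value. The cells were blastomeres of cloned BDF1 embryos (somatic cell nuclear transfer, SCNT: a body-cell nucleus replaces that of the egg), taken at the 4-cell or the 8-cell stage after culture in CZB medium. scRepli-seq infers from the DNA content of 1 cell which bins have been copied, and every bin is scored as replicated, unreplicated or without a call. The replication score of a cell is the percentage of its called autosomal bins that are replicated, so it gives the cell's position within S phase. The donor cell type is not given in the sources used here, fertilised embryos were not analysed here, and blastomeres of both stages passed through cytochalasin B during isolation and whole-genome amplification before sequencing.

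During S phase, a mammalian chromosome is copied in a set order of domains: groups of origins in open, gene-rich chromatin fire first, and gene-poor regions and lamina-attached chromatin are copied late. Forks moving out of an early domain into a late one form a timing transition region. In the mouse embryo this order is known to become better defined over the first cleavages.

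There were 28 cells from 14 embryos at the 4-cell stage and 49 cells from 12 embryos at the 8-cell stage. Mid-S cells, with a score of 30 to 70, numbered 18 from 9 embryos and 28 from 10 embryos. The deposited cell table gives 2 batch codes, and the batch with the lower code is called the earlier and the other the later batch here. These names follow the order of the codes, and the dates of the batches were not looked up. Of the 4-cell mid-S cells, 10 from 5 embryos belonged to the earlier batch, and all 8-cell cells belonged to the later one. The mid-S cells had calls in 2191 to 2211 chromosome 2 bins at the 4-cell stage and in 1638 to 2212 at the 8-cell stage; 55 bins had no call in any cell. Values other than the agreement between cells were averaged over the cells of an embryo, and the embryo was the replicate throughout. An embryo had 1 to 4 mid-S cells at the 4-cell stage and 1 to 7 at the 8-cell stage. Embryos were weighted alike, except in the agreement, where pairs of cells were pooled. An embryo value, and the spread between embryos, can thus rest on the state of 1 cell. Sequencing depth was not given in the files.

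Bins of the deposited tables have no gene names, so genes were placed by their known mm9 positions to a whole megabase, and 47 loci with 64 named genes served as landmarks. Promoters were sought for Mcm10, whose 1-Mb window differed between the stages, and for the 2 earliest and the 2 latest loci that have a window to themselves and 1 gene. The latter are Lhx2 (a homeobox regulator of forebrain and limb), Nnat (imprinted, expressed from the paternal copy), Macrod2 (a very long gene) and Bmp2 (a growth factor), whose promoter is not shown here. A very long gene can extend past 1 window. Macrod2 was read from 141000001 to 142000000, and its promoter was not shown to lie there. The sequences are the 250 bases before the gene's start, 5′ to 3′ on the gene's strand, from RefSeq on GRCm38.p6, and capitals mark each CG dinucleotide.
Mcm10: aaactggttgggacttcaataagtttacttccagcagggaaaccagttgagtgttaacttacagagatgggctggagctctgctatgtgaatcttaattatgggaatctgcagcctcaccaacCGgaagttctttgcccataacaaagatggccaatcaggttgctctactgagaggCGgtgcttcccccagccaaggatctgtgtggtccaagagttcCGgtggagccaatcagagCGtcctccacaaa
Lhx2: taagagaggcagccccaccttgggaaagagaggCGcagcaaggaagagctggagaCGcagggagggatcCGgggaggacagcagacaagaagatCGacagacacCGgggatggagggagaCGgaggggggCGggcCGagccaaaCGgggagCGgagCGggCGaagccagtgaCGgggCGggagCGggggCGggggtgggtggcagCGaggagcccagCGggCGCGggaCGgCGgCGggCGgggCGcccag
Nnat: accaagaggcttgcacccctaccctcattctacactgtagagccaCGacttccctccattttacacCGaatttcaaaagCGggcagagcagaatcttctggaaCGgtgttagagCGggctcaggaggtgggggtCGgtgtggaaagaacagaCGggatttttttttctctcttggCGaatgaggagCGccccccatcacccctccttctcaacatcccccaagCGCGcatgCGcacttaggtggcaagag
Macrod2: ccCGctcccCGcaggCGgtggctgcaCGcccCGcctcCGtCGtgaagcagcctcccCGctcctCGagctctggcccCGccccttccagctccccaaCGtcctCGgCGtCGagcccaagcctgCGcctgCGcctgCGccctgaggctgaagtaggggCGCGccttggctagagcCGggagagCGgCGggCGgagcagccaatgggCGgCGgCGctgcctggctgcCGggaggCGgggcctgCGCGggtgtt
The motif searched was CG, which reads the same on both strands. Lhx2 held 25 of them, a number reached by 10.3% of 27025 mouse promoters of that length, and Macrod2 held 30, reached by 5.63%. Nnat held 12, reached by 33.8%, and Mcm10 held 4, reached by 61.9%. Over the landmark loci of 1 named gene with a promoter sequence, the median number was 20 in 10 loci early at both stages, 16.5 in 4 late at both and 9 in the other 17, against 6 over all promoters. Loci of several genes were left out of these medians.

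Chromosome 2 departed from the rest of the genome in a few cells. In 4 cells with a score of 40 or more, at most 10% of the called chromosome 2 bins were replicated, and they were both cells of 4-cell embryo 2 and both cells of 4-cell embryo 4. In embryo 4, chromosome 2 was replicated in 0.136% of bins in 1 cell and in 0% in the other, while the other autosomes were replicated in 99.9% and 100% of bins. In embryo 2 the values were 9.32% and 0.254%, against 96.6% and 91.6% on the other autosomes. Both cells of an embryo were thus low on chromosome 2 in each case. The longest unreplicated stretches spanned 139 Mb and 174 Mb in embryo 2 and 172 Mb and 179 Mb in embryo 4. In the first cell of embryo 2 the stretch ran from 30880001 to 170000000, and the replicated bins lay before it, in blocks that alternated with unreplicated ones. Bins after 170000000 had no call in this cell, so their state is not known. Of the 23 cells at the 4-cell stage with such a score, 4 were of this kind, and of the 36 at the 8-cell stage none was, which was not tested. Under the same rule 13 of 19 autosomes had at least 1 such cell; chromosomes 9 and 10 had 5 each and the median autosome had 1. These 4 cells are described apart. None of them was in mid-S, so no mid-S value below contains them.

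**Figure D1:**
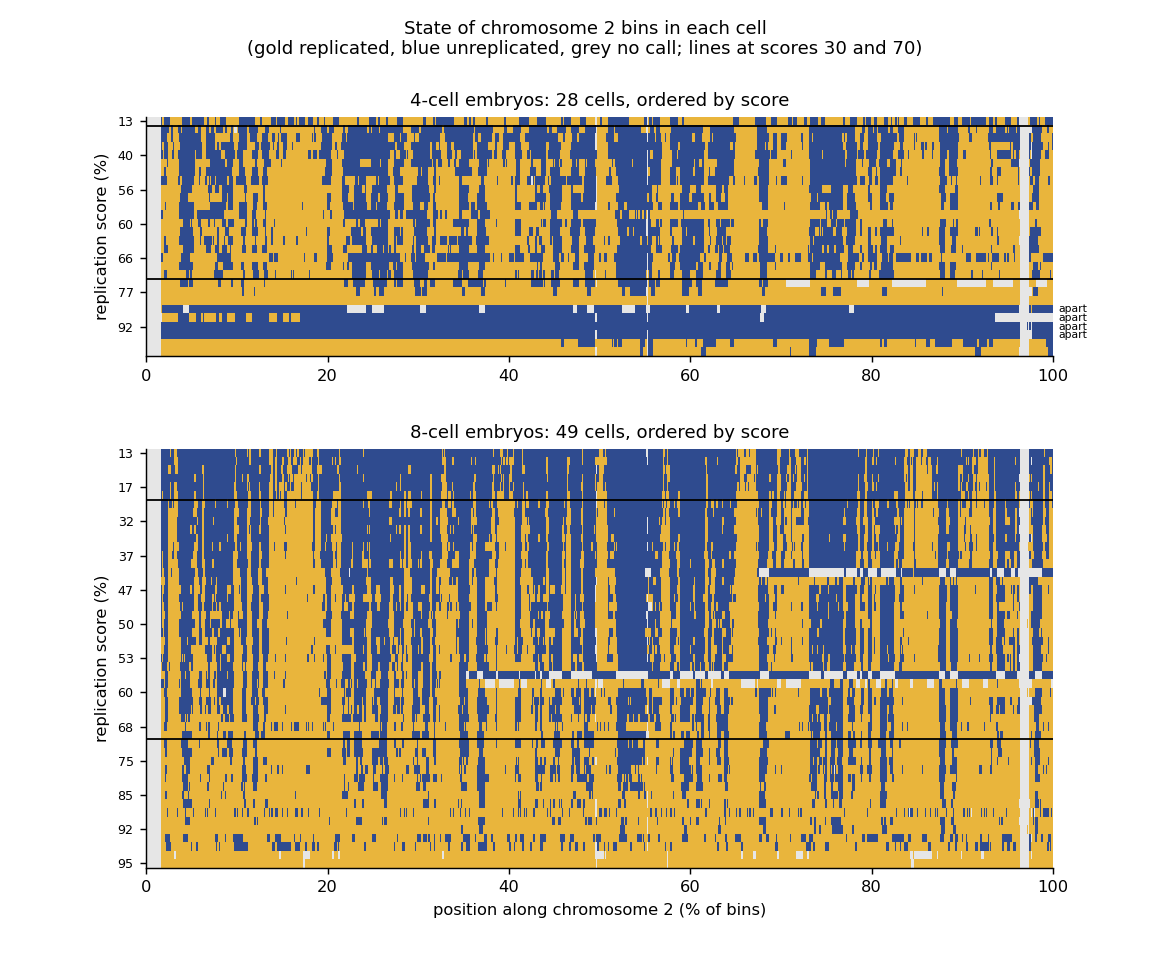
State of each chromosome 2 bin (horizontal axis, position as a percentage of bins) in each cell (rows, ordered by replication score in percent), for 28 cells of the 4-cell and 49 of the 8-cell stage; gold is replicated, blue unreplicated and grey without a call. Most mid-S cells, between the black lines at 30 and 70, show the same gold and blue columns, and the 4 cells marked apart are blue along nearly the whole chromosome.

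Another 3 cells lay 20 points or more from their own autosomal percentage. The only cell of 4-cell embryo 8 had a score of 12.6 and yet 56.0% of chromosome 2 replicated, with 16 of the other 18 autosomes at 10% or less. Its replicated bins did not follow the order of the chromosome: it had copied 52.2% of the bins in 4-cell early domains and 58.6% of those in late domains, and its states correlated with the mean profile of the mid-S cells at r = -0.08. The second cell of 8-cell embryo 9 had 73.3% of chromosome 2 replicated at a score of 93.7. The sixth cell of 8-cell embryo 11, a mid-S cell with a score of 56.5, had 28%, and every called bin from 62640001 to the end of the chromosome was unreplicated.

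Bins without a call were not scattered in the cells that had many of them. In 5 cells there were calls in fewer than 2000 chromosome 2 bins, and for each the bins were sorted by the early and late domains of the other stage, which the cell had no part in. In the sixth cell of 8-cell embryo 11, from 70400001 on, 288 of 305 late-domain bins but 11 of 501 early-domain bins had no call, and all 490 called early-domain bins were unreplicated. The third cell of 8-cell embryo 1 showed the same from 122800001 on, with 123 of 124 late-domain bins and 7 of 321 early-domain bins uncalled. The second cell of 4-cell embryo 2 lacked calls in 155 of 601 late-domain and 2 of 736 early-domain bins from 8320001 on. The remaining 2 cells were the other way round. The second cell of 8-cell embryo 12, from 69280001 on, lacked calls in 250 of 511 early-domain bins and in none of 305 late-domain bins, 243 of which were replicated. The first cell of 4-cell embryo 12 lacked 197 of 270 early-domain bins from 129360001 on, and 15 late-domain bins against 149 with a call, and every called bin there was replicated. In the 3 cells whose called bins there were nearly all unreplicated, late-domain bins thus lacked calls more often than early-domain bins, and in the 2 cells whose called bins there were all or mostly replicated, the reverse. The share uncalled among bins outside any domain lay between the other 2 classes in all 5 cells (245 of 561 in the sixth cell of 8-cell embryo 11). The cause was not tested. The 3 cells of 8-cell embryos 1, 11 and 12 were in mid-S and are part of the values below, which were also computed without them, a choice made after seeing the data; the 8-cell map then had 47 early and 46 late domains.

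In the mean profiles of the mid-S cells, chromosome 2 alternated between early and late stretches, with nearly equal early shares at the 2 stages and a larger late share at the 8-cell stage. A bin counted as early where the mean over embryos was at least 80% replicated and as late where it was at most 20%, with calls in at least 6 embryos. Of 2210 bins with a value at the 4-cell stage 36.2% were early and 22.3% late. At the 8-cell stage 36.2% of 2211 were early and 30.9% late. The same rule made 32% and 32.8% of autosomal bins early and 21.2% and 33.2% late, so chromosome 2 held a somewhat larger early share than the autosomes at both stages. The averaged cells also differed in their position in S phase, with a median score of 57.3 in 4-cell and 49.5 in 8-cell mid-S cells, and its part in the larger late share was not tested. Runs of at least 5 such bins, or 400 kb, were taken as domains: there were 44 early and 27 late domains at the 4-cell stage, covering 62 Mb and 36.7 Mb, and 45 early and 45 late ones at the 8-cell stage, covering 60.9 Mb and 49.9 Mb. The median early domain was 0.88 Mb and 0.80 Mb long and the median late one 1.12 Mb and 0.96 Mb. The number of domains depends on these limits, and requiring 10 bins left 17 late domains at the 4-cell stage and 27 early and 25 late ones at the 8-cell stage. With limits of 90% and 10%, 16 late domains were left in the 4-cell map, and its later batch alone gave 19.

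**Figure D2:**
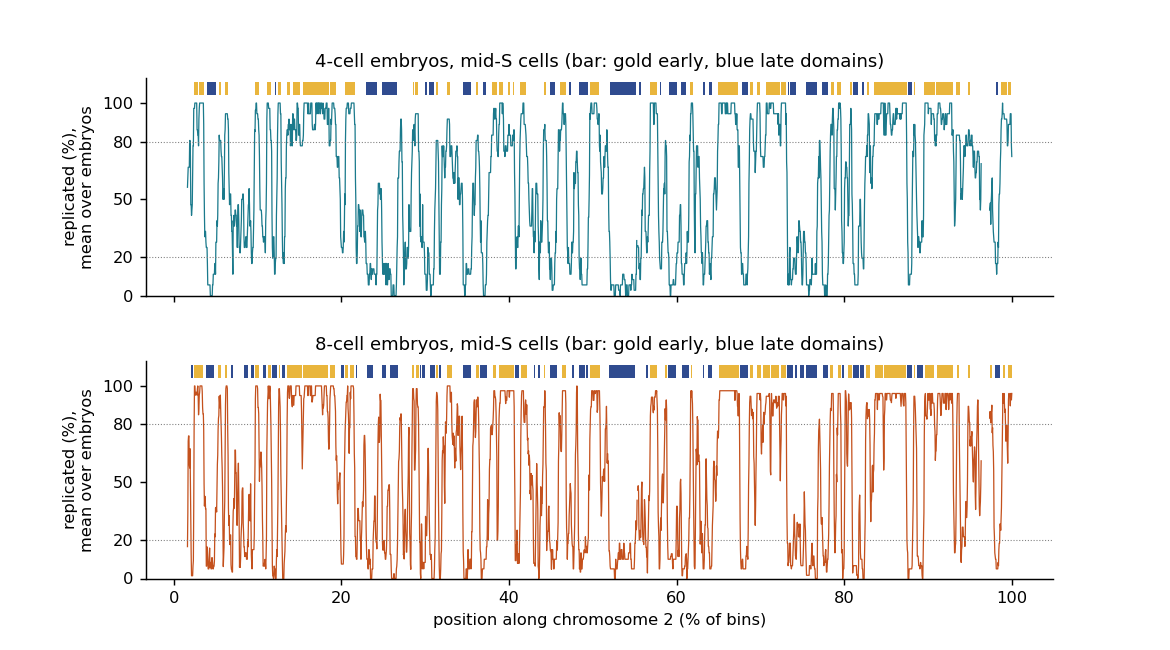
Percentage of replicated cells per 80-kb bin (vertical axis, mean over the embryos' mid-S cells) along chromosome 2 (horizontal axis, percentage of bins) for 9 embryos of the 4-cell and 10 of the 8-cell stage; dotted lines mark 20% and 80%, and bars above each curve mark early (gold) and late (blue) domains. Early and late peaks fall at the same places in both curves, and the 8-cell curve has 45 blue domains against 27.

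The domains lay at largely the same places in both stages. Of the 4-cell early-domain bins 87.2% were in early domains of the 8-cell stage, and 88.8% the other way round (676 shared bins). Of the late-domain bins 85.6% of the 4-cell ones and 63.0% of the 8-cell ones were shared (393 bins). No bin was in an early domain at one stage and a late domain at the other. Across 2210 bins, which are neighbours and share the same cells, the 2 mean profiles correlated at r = 0.90 (Spearman's rho = 0.88). Early and late domains followed each other directly 32 times at the 4-cell stage and 51 times at the 8-cell stage. The stretch between them, the timing transition, had a median length of 0.72 Mb and 0.32 Mb.

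The longest early domain of the 4-cell stage ran from 151840001 to 158880000 (7.04 Mb) and held the windows of Dnmt3b, a de novo DNA methyltransferase, of E2f1, a transcription factor of S-phase entry, and of Nnat. Its embryos were 71.6% to 100% replicated, with a median of 98.9%. At the 8-cell stage its main part, from 154000001 to 158720000, was the second longest early domain (74.6% to 100%, median 99.4%). The next, from 27920001 to 33680000 in 4-cell embryos and from 28080001 to 33520000 in 8-cell embryos, held most of the window of Lmx1b, a LIM homeobox regulator of limb and kidney, and was the longest at the 8-cell stage. Both maps had, next in length, an early domain without a landmark (117920001 to 122320000 in the 4-cell and 118160001 to 122640000 in the 8-cell map) and the domain of Sall4, a zinc-finger pluripotency factor (165280001 to 168960000 and 165440001 to 168880000). The fifth differed: 128240001 to 131440000, with the cytokine gene Il1b, at the 4-cell stage, and 70480001 to 73840000, with the homeobox pair Dlx1 and Dlx2, at the 8-cell stage. By whole 10-Mb segments the earliest were 150000001 to 160000000, replicated to 81.9% ± 8.14 (SD, n = 9 embryos) and 78.4% ± 9.24 (SD, n = 10), and 30000001 to 40000000, at 81.2% ± 10.7 and 76.4% ± 7.70.

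The longest late domain had the same length at both stages, 5.76 Mb, and lay from 94560001 to 100320000 in 4-cell embryos and from 94320001 to 100080000 in 8-cell embryos. Its embryos ranged from 0% to 25.7% replicated at the 4-cell stage (median 1.39%) and from 0% to 44.4% at the 8-cell stage (median 1.26%). No landmark locus lay mainly in it, nor in the other 4 of the 5 longest late domains of either stage, although some cover part of a landmark window. In the 4-cell map 87840001 to 89760000 covers part of the second olfactory receptor group. The others of that map were 45200001 to 48400000, with part of the window of Orc4, 41680001 to 44080000, with part of that of Lrp1b, and 137040001 to 139360000. Those of the 8-cell map were 136960001 to 139520000, 7040001 to 8880000, 62720001 to 64560000 and 107040001 to 108880000. The first bin of the first of these crosses the end of the window of Jag1. The segment from 40000001 to 50000000 was the latest of the chromosome, at 26.6% ± 17.2 (SD, n = 9) and 31% ± 15.5 (SD, n = 10). The latest 1-Mb window by the mean of both stages, from 47000001 to 48000000, was at 2.99% ± 6.60 and 2.69% ± 4.46. The earliest by the mean of both stages, from 31000001 to 32000000, was at 98.1% ± 2.72 in 4-cell embryos and at 100% in all 10 8-cell embryos.

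Most cells outside mid-S, which had no part in the map, had a larger share of early-domain than of late-domain bins replicated. This was so in 6 of 6 8-cell cells with a score under 30, in 11 of 15 over 70 (2 were equal and 2 the other way round) and in 4 of 5 4-cell cells over 70 not described apart (1 was equal), but not in the only 4-cell cell under 30, described above. In 6 cells of 4 8-cell embryos with a score under 30, 41.1% to 74.0% of the early-domain bins were replicated (median of embryos 47.2%) but only 0% to 0.481% of the late-domain bins. In 15 cells of 8 8-cell embryos with a score over 70, 82.9% to 100% of early-domain and 27.9% to 100% of late-domain bins were replicated (medians 99.5% and 64.2%). In the 5 cells of 3 4-cell embryos with a score over 70 that were not kept apart, the ranges were 91.2% to 100% and 33.3% to 83.7%. Early-domain and late-domain ranges did not overlap in the cells under 30 and did in the cells over 70 at the 8-cell stage.

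Of the landmark loci 46 of 47 had a value, and 14 were early and 5 late at both stages, by the same limits of 80% and 20% on the mean over embryos. Among all 177 windows of 1 Mb with a value on chromosome 2, 46 were early and 27 late at both stages, 58 were early and 31 late in the 4-cell map, and 52 and 38 in the 8-cell map. The loci were chosen by hand with earlier results of these data known, so these counts describe the list only. Loci in the same window, such as Pax1 and Foxa2, share 1 value. Pax1 and Foxa2 count among the late loci, but their 4-cell mean was 31.7%, above the limit, in the later batch alone. In the later batch alone, the only one with 8-cell embryos, 14 of 46 4-cell locus means moved by over 1.5 times, 13 of them upwards, and the median score of those 4-cell cells was 60.9 against 52.2 in the earlier batch. The part of the score or the batch in these moves was not tested. The distal zinc-finger cluster had too few called bins for a value.

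The 7 loci of DNA replication and cell cycle genes lie in 6 windows, of which 4 were early in the 4-cell map and 3 in the 8-cell map, and none was late in either. The window shared by Pcna, the sliding clamp of the replication fork, and Mcm8, a helicase-related protein, was at 93.1% ± 6.59 (SD, n = 9) and 86.0% ± 10.2 (SD, n = 10). E2f1 was at 92.6% ± 12.6 and 93.8% ± 8.90, and Gins1, a subunit of the replicative helicase, was at 81.0% ± 24.2 and 85.1% ± 15.2. The lowest of the group was Orc4, a subunit of the origin recognition complex, at 33.8% ± 19.6 and 25.7% ± 12.1. The window of Mybl2, a transcription factor of proliferating cells, was between them at 57.2% ± 26 and 37.5% ± 9.50. At the 8-cell stage it held the end of a late domain, at 162480000, and the start of an early one, at 162720001. The 4-cell early domain there began at 162560001, and the place of Mybl2 within the window is not resolved.

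The 7 genes that act in the preimplantation embryo or on chromatin lie in 6 windows, of which 3 were early in the 4-cell map and 2 in the 8-cell map and none was late. Sall4 was at 94.0% ± 11.6 (SD, n = 9) and 92.2% ± 8.59 (SD, n = 10), and Dnmt3b at 96.2% ± 5.44 and 87.6% ± 11. Tfap2c, a trophectoderm regulator, and Ctcfl, a germline relative of CTCF, share a window that was at 81.2% ± 34 and 75.9% ± 21.6. Its 4-cell values ran from 0% in embryo 14 to 100%, with a median of 100%. Sfmbt2, a Polycomb-related gene needed in the placenta, was at 66.2% ± 33.3 and 54.7% ± 15.7, and Suv39h2, an H3K9 methyltransferase, at 61.7% ± 32.7 and 42.5% ± 20.8.

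Homeobox and Pax loci ranged from early to late. Lhx2 was at 97.9% ± 4.42 (SD, n = 9) and 92.6% ± 7.20 (SD, n = 10), Dlx1 and Dlx2 at 87.4% ± 16.3 and 96.7% ± 7.82, and Lmx1b at 90.2% ± 18.2 and 86.7% ± 11. Pax1, a regulator of the axial skeleton, shares its window with the endoderm factor Foxa2, which was late at 18.2% ± 23.2 and 12.3% ± 17.8. The 4-cell mean of this window was 31.7% in the later batch alone, above the limit for late loci. Pax6, the eye and forebrain regulator, was at 25.9% ± 29.4 and 29% ± 25.8, and Meis2, a Hox cofactor, at 27.4% ± 35.7 and 31.8% ± 27.4. In the later batch alone the 4-cell means of Pax6 and Meis2 were 43.3% and 60.6%. The HoxD window was at 28.7% ± 29.6 at the 4-cell stage, where its embryos ran from 4.17% to 79.2% with a median of 8.33%, and at 12.6% ± 17.7 at the 8-cell stage, from 0% to 45.8% with a median of 3.12%. At the 4-cell stage HoxD embryos formed a low group of 6 at 25% or less and 3 embryos, numbers 1, 6 and 7, at 58.3%, 62.5% and 79.2%. These 3 are all of the later batch and the 5 embryos of the earlier batch are all in the low group, with embryo 3 of the later batch. The mean of the later batch alone was 51.0%, and the part of the batch in this split was not tested. The Dlx1 and Dlx2 window begins 3 Mb before that of HoxD, and the ranges of the 2 windows overlapped at the 4-cell stage (Dlx from 53.8%) and not at the 8-cell stage (Dlx from 75%).

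Of 7 long and neuronal loci 2 were late and none early at both stages. Macrod2 was at 5.98% ± 8.18 (SD, n = 9) and 10.5% ± 13.9 (SD, n = 10) and Galnt13, a glycosyltransferase gene, at 15.5% ± 26.3 and 15.4% ± 16.1. Plcb1, a phospholipase C gene, was at 22.4% ± 24.5 and 19.1% ± 17.9. In the later batch alone the 4-cell means of Macrod2, Galnt13, Plcb1 and Lrp1b were 13.5%, 0%, 40% and 47.1%. Lrp1b, a giant lipoprotein receptor gene, was at 28.6% ± 35 and 43.8% ± 28.2, and the cluster of voltage-gated sodium channel genes at 55.9% ± 23 and 59.4% ± 11. Macrod2 and Lrp1b were each read in 1 window, which a long gene can extend past. The windows before and after that of Macrod2 were at 35.4% and 78.5% in 4-cell embryos and at 32.6% and 80.8% in 8-cell embryos. Those before and after that of Lrp1b were at 40.5% and 10.6%, and at 26.9% and 6.67%. Ttn, the giant muscle protein gene, was at 76.2% ± 33.3 and 80.6% ± 17.7. Cdh4, a cell adhesion gene, was early only in the 4-cell map, at 84.4% ± 12.2 and 57.7% ± 16.5, and its window did not pass the test of windows described further on (limma adjusted p = 0.131). Among the gene clusters, the 3 olfactory receptor groups were at 30.8%, 27.8% and 41.7% in 4-cell embryos and at 17.5%, 27% and 19.9% in 8-cell embryos. In the later batch alone the 4-cell mean of the first was 57.3%. The Wfdc cluster of protease inhibitor genes was early, at 92.8% ± 13.5 and 89.9% ± 9.71. Of the imprinted loci, Nnat was at 94.2% ± 9.32 and 95.0% ± 8.41 and Gnas at 64.8% ± 35.1 and 61.9% ± 19.3, and a cell's states do not tell the parental copies apart.

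**Figure D3:**
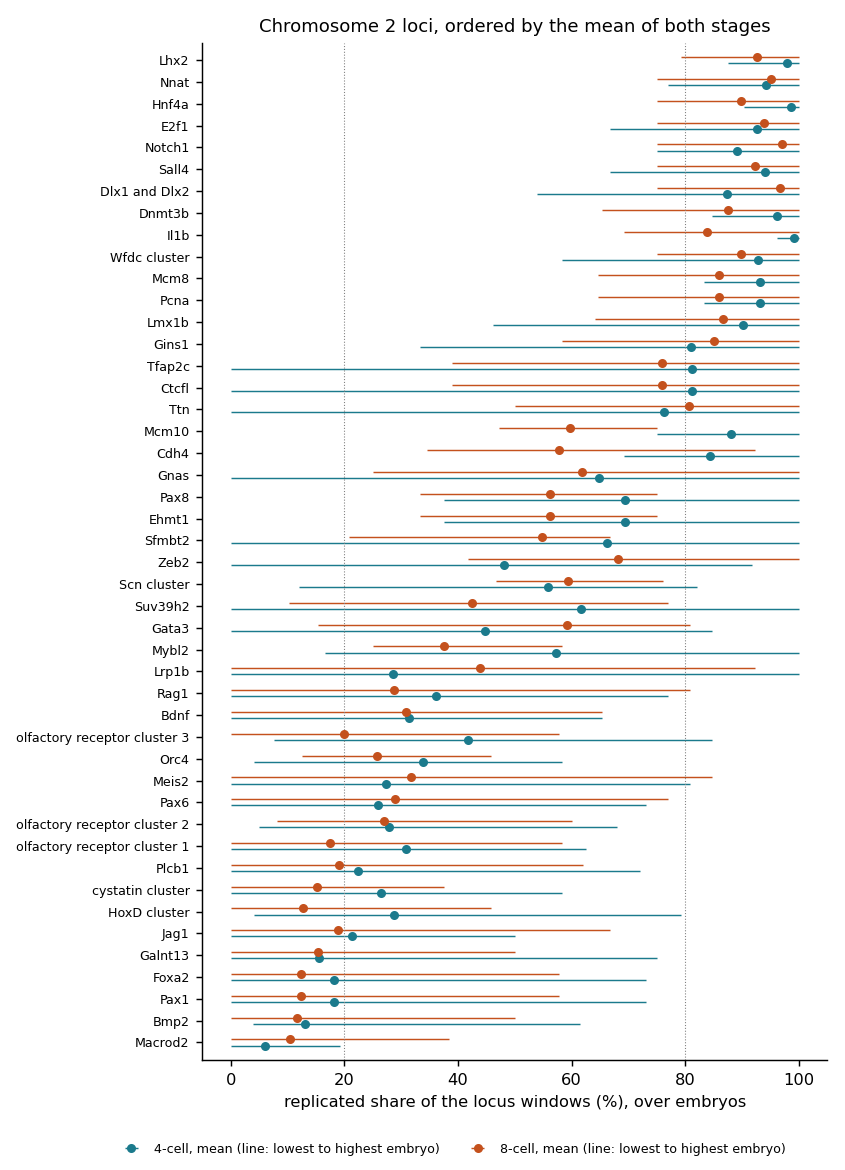
Percentage of each locus replicated in mid-S cells (horizontal axis) for 46 loci (rows, ordered by the mean of both stages); points are means over 9 embryos of the 4-cell and 10 of the 8-cell stage, and lines run from the lowest to the highest embryo. Lhx2 and Nnat stand at the top and Macrod2 and Bmp2 at the bottom, and intermediate loci have the widest lines.

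The first comparison between the stages was of the chromosome as a whole, relative to the autosomes of the same cells. At the 4-cell stage the difference in embryos ran from -1.20 to 10.7 percentage points, with a median of 1.28, and 6 of 9 embryos were above 0. At the 8-cell stage it ran from -4.15 to 10.6, with a median of 2.76, and 8 of 10 were above 0. The 2 ranges overlapped almost wholly. The means were 1.86 ± 3.71 (SD, n = 9) and 2.96 ± 4.42 (SD, n = 10), and neither differed from 0 in a two-sided exact sign-flip test adjusted over 20 chromosomes (Benjamini-Hochberg adjusted p = 0.216 and 0.0931). Without the sixth cell of 8-cell embryo 11 the 8-cell mean was 3.78 and passed (exact sign-flip test, adjusted p = 0.0260), as it did without embryo 9 (3.64, adjusted p = 0.0497) or embryo 11 (3.75, adjusted p = 0.0469), or without the 3 mid-S cells with many uncalled bins (3.15, adjusted p = 0.0293). The stages differed by 1.10 points, within the spread of embryos (exact two-sided permutation of embryo labels, p = 0.566, adjusted p = 0.732). Within the later batch the difference was -0.68 points, and with scores of 40 to 60 it was -2.62, so it has no settled direction.

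Along the chromosome, states changed more often at the 8-cell stage. The embryo values were 36.2 to 59.7 changes per 1000 called bins at the 4-cell stage, with a median of 51.0, and 47.6 to 78.3 at the 8-cell stage, with a median of 64.6. Of 10 8-cell embryos 7 lay above every 4-cell embryo. The means were 49.99 ± 8.13 (SD, n = 9) and 64.9 ± 10.1 (SD, n = 10), a difference of 14.9 (exact two-sided permutation of embryo labels, p = 0.0031). Within the later batch the difference was 18.3 (p = 0.00699, exact permutation test), and without the 4-cell embryos of that batch it was 12.1 (p = 0.0403, exact permutation test). With 11 cells per stage matched on the score the means were 51.0 and 63.6 (exact permutation test, p = 0.00436). The median replicated run was 1.12 ± 0.313 Mb (SD, n = 9) long at the 4-cell and 0.790 ± 0.158 Mb (SD, n = 10) at the 8-cell stage, and the median unreplicated run 0.913 ± 0.201 Mb and 0.829 ± 0.212 Mb.

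**Figure D4:**
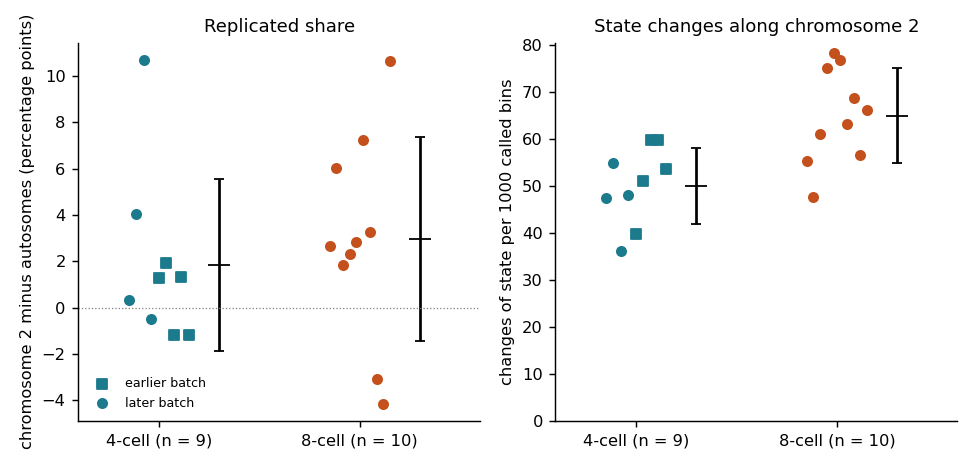
Embryo means of mid-S cells at the 4-cell (n = 9) and 8-cell (n = 10) stage: left, replicated percentage of chromosome 2 minus that of the autosomes (percentage points); right, changes of state per 1000 called bins; squares are the earlier and circles the later batch, and bars are mean ± SD. The left groups overlap almost wholly, and on the right 7 of 10 8-cell embryos lie above every 4-cell embryo.

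Agreement of the chromosome 2 pattern between cells was measured as phi, the correlation of states over bins called in both cells. Between cells of different embryos the mean phi was 0.461 over 141 pairs at the 4-cell stage, 0.531 over 340 pairs at the 8-cell stage and 0.469 over 504 pairs across stages. Pairs were pooled over embryos, so embryos with more mid-S cells weighed more. Of the 340 pairs, 8-cell embryo 1 took part in 147 and 8-cell embryo 2 in 27. The stages differed by 0.0698, which did not pass (exact two-sided permutation of embryo labels, p = 0.346; 0.105 and p = 0.344 within the later batch). Without the 3 mid-S cells with many uncalled bins, a choice made after seeing the data, the difference was 0.132 (exact permutation test, p = 0.0424). These cells are all of the 8-cell stage, and no 4-cell cell was left out there. Without single embryos the difference ran from 0.00869 to 0.0864, and none of the 19 passed. The means of single embryos with the others of their stage ran from 0.253 to 0.562 in 4-cell embryos and from 0.441 to 0.586 in 8-cell embryos. The lowest was 4-cell embryo 1, whose cells had 48% and 76.7% of chromosome 2 replicated at scores of 65.8 and 58.2. The second of them had 2 replicated stretches of 28.4 Mb and 39 Mb, from 107760001 to 136160000 and from 142720001 to the end of the chromosome. Cells of the same embryo had a mean phi of 0.512 over 12 pairs and 0.532 over 38 pairs.

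For the position of the stage differences, 1-Mb windows of all chromosomes were fitted together, 1 value per embryo, with its autosomal percentage as a covariate. Of 2537 windows 18 differed, or 0.709% (limma, Benjamini-Hochberg adjusted p under 0.05), and 1 of the 177 chromosome 2 windows was among them. At an unadjusted p under 0.05 there were 18 on chromosome 2, of which 11 were earlier and 7 later at the 8-cell stage, and 398 in all. The window that passed lay from 4000001 to 5000000 and holds Mcm10, an origin-firing factor of the replication fork. Its embryos ran from 75% to 100% replicated at the 4-cell stage (median 91.7%) and from 47.2% to 75% at the 8-cell stage (median 57.3%), so that the ranges met only at 75%. The means were 88.0% ± 9.42 (SD, n = 9) and 59.8% ± 8.20 (SD, n = 10), and the fit gave 25.6 points less in 8-cell embryos (-25.6, SE 4.63, limma adjusted p = 0.0141). Within the later batch it was -29.2 (adjusted p = 0.0814) and with scores of 40 to 60 -32.7 (adjusted p = 0.0724), neither past the threshold. Bins cross window borders and were assigned by their midpoint. Assigned by their start, they gave -23.8 (adjusted p = 0.0235), and the call was then lost without 4-cell embryo 14 (adjusted p = 0.0518), 8-cell embryo 9 (0.0725) or 8-cell embryo 12 (0.0627). By midpoint the call held without each of the 19 embryos in turn.

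The difference lay in the first part of that window and not over all of it. The bins from 4480001 on were replicated in at least 95.2% of cells, as the mean over embryos, at both stages. Those from 4000001 to 4320000 were at 47.2% to 77.8% in 4-cell embryos and at 1.43% to 9.29% in 8-cell embryos. Just before the window, the bins from 3840001 to 4000000 were at 41.7% and 44.4% in 4-cell embryos and at 1.43% in 8-cell embryos. At the 8-cell stage the stretch was thus a late trough between bins at up to 74.0% before it and up to 100% after it, and at the 4-cell stage the same trough was shallower. The place of Mcm10 within its window is not resolved by whole-megabase positions. It is therefore not known here whether Mcm10 lies in the bins that differed.

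**Figure D5:**
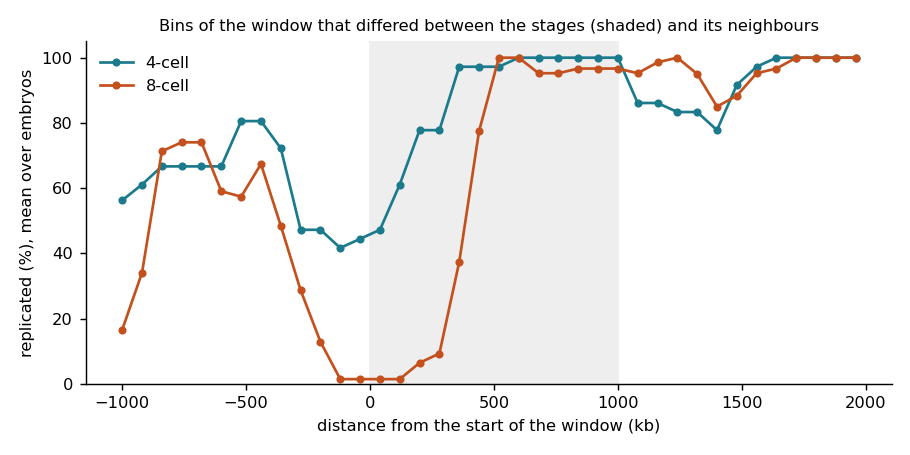
Replicated percentage of each 80-kb bin (vertical axis, mean over embryos' mid-S cells) against the distance of its centre from the start of the window (horizontal axis, kb), for the window that differed between the stages (shaded) and its neighbours. The curves lie apart at the left edge, in the bins just before the window and in its first bins, where the 8-cell curve is at 1.43% to 9.29%, and meet above 95% in its second part.

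The windows with the largest fitted differences otherwise did not pass. In the 1-Mb window that starts at 171000001 the embryos ran from 0% to 100% at the 4-cell stage (median 92.3%) and from 0% to 69.2% at the 8-cell stage (median 25.6%), and the groups overlapped. The fit gave -37.2 points (SE 10.4, limma adjusted p = 0.114), and among the alternatives run it passed only without 4-cell embryo 14, the 4-cell embryo at 0% (-48.1, adjusted p = 0.0497). From 22000001 to 23000000 it was -25.8 (SE 8.07, limma adjusted p = 0.146), which passed only without 8-cell embryo 2 (-29.9, adjusted p = 0.0443). Another 3 windows had the largest differences towards earlier replication at the 8-cell stage. They were 46000001 to 47000000 (30.8 points, SE 10.6, limma adjusted p = 0.185), 44000001 to 45000000 with Zeb2, a neural crest repressor (30.0 points, SE 11.8, limma adjusted p = 0.230), and 65000001 to 66000000, in the sodium channel cluster (25.6 points, SE 10.4, limma adjusted p = 0.250). In all 3 the embryo ranges of the stages overlapped.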

How the data were processed

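Single-cell replication states of 77 blastomeres were read from the deposited tables. The authors scored each 80-kb bin as 1 (replicated), -1 (unreplicated) or 0 (no call), on the mm9 build named in the submitters' processing notes. No source used here names the aligner or the state caller. The replication score of each cell is a percent deposited by the authors, which equals the share of replicated bins among called autosomal bins, and the authors' noise score of each cell was deposited beside it and used only to describe cells. Cells with a score of 30 to 70 were averaged per embryo, except for the agreement, where pairs of cells were pooled. Labels name the embryo of each cell, and p-values measure the spread between embryos.

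Chromosome values were tested by exact permutation of embryo labels or exact sign-flip, two-sided, with Benjamini-Hochberg adjustment over 20 chromosomes. For position, all chromosomes were split into 1-Mb windows, kept where 8 or more cells of each stage had 6 or more called bins, and fitted in limma (3.58.1, R 4.3.3); the terms were stage and autosomal percent. The fit was tested on simulated data. A first run assigned bins to windows by their start; assignment by midpoint was adopted after the calls of both had been seen, because it matched earlier window counts of these data, and both are given. Score limits, domain limits, window size, filters, batch and each embryo were varied as described at the end.

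The members, loci and lists were chosen with earlier results of these data known. Named regions are every chromosome 2 window past the test, the 5 longest early and late domains of each stage, the 3 largest fitted differences in each direction and the landmark loci. Gene positions were taken to whole megabases of mm9 from general knowledge, since no mm9 annotation was used here; all 64 genes were found on chromosome 2 in RefSeq GRCm38.p6 with 0 neighbouring loci out of order. Wt1, B2m and Nkx2-2 were left out as too near a window border. Promoters come from RefSeq (GRCm38.p6). Python 3.11.15 with numpy 2.4.6 and pandas 2.3.3 did the rest.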

Additional observations from a re-analysis of the deposited data

Results flagged for a closer look

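Of 90 sets of embryo values, each the 9 or 10 embryos of a stage for 1 measure, 15 had 1 embryo far from the others. A chance rate of about 1 in 20 sets was not checked for these values, so the 15 cannot be set against it. Most values are percentages bounded at 0 and 100, often tied: at Lhx2, 7 of 9 4-cell embryos were at 100%. Values of 1 embryo along a chromosome are also not independent. Of the whole-chromosome measures, 4-cell embryo 6 had chromosome 2 at 10.7 points above its autosomes, against -1.20 to 4.05 in the other 8.

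Among them 4 concern 4-cell embryo 1, the embryo with the lowest agreement with the others. It was at 61.5% at Bmp2, where the others were at 3.85% to 15.4%, and at 73.1% at Pax1 and Foxa2 (others 0% to 30.8%). It was at 84.6% at Dnmt3b (others 92.3% to 100%) and at 58.3% at the Wfdc cluster (others 89.6% to 100%).

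Another 4 concern 4-cell embryo 14, a single cell with a score of 38.2. It was at 46.2% at Lmx1b (others 80.8% to 100%), at 0% at Ttn (others 58.3% to 100%), at 66.7% at Sall4 (others 83.3% to 100%) and at 0% at Tfap2c and Ctcfl (others 60.4% to 100%). 4-cell embryo 11 was at 87.5% at Lhx2 (others 93.8% to 100%) and 4-cell embryo 13 at 90.4% at Hnf4a (others 96.2% to 100%).

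At the 8-cell stage, embryo 6 was at 75% at Notch1 (others 95.8% to 100%) and embryo 11 at 75% at Dlx1 and Dlx2 (others 94.9% to 100%). Embryo 12 was at 62% at Plcb1 (others 0% to 30%) and at 57.7% at Pax1 and Foxa2 (others 0% to 25.6%). That embryo includes the cell with a replicated stretch and uncalled early-domain bins.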

How the results depend on the processing

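The higher rate of state changes at the 8-cell stage kept its direction and its side of the threshold in all 26 alternatives run (differences of 12.1 to 18.3, exact permutation p from 0.000576 to 0.0403), and the difference in agreement stayed short of it in 24 of 25. Without single embryos the difference in agreement ran from 0.00869 to 0.0864. The chromosome 2 minus autosome difference between stages reversed with scores of 40 to 60 (-2.62) and in the later batch alone (-0.68), and without single embryos it ran from 0.250 to 2.21. Against 0 at the 8-cell stage, leaving out single embryos gave 2.11 to 3.75, and leaving out the departing mid-S cell gave 3.78. Leaving out the 3 mid-S cells with calls in fewer than 2000 bins gave 3.15 there, 0.132 for the agreement, which then passed, and 7 windows called in all with 1 on chromosome 2; both omissions were chosen after seeing the data. Late domains at the 4-cell stage numbered 16 with limits of 90% and 10% and 17 with at least 10 bins; with at least 10 bins the 8-cell stage had 27 early and 25 late ones. The count of windows called was 0 in all and 0 on chromosome 2 with scores of 40 to 60 (limma), 18 and 0 in the later batch alone, 53 and 1 with batch as a term, 2 and 0 with 2-Mb windows and 6 and 1 with at least 10 called bins. Without single embryos it ran from 5 to 33 in all and from 1 to 3 on chromosome 2. Assignment by start, the first one run, gave 12 and 1, and without single embryos 1 to 30 in all (leaving out 4-cell embryo 13 gave 11) and 0 to 3 on chromosome 2. The cause of these moves was not tested, other than that several of them leave fewer cells or windows. Of 138 locus values under other score limits or the later batch alone, 137 moved by less than 1 SD, and 21 moved by over 1.5 times, 19 of them upwards. No paired analysis was possible because the stages share no embryos. The 9 and 10 embryos limit precision, and all 8-cell embryos are of 1 batch; sequencing depth is unknown.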

Other observations

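Replicated stretches of 15 Mb or more, at any place on the chromosome, were present in 9 of 15 8-cell cells with a score over 70. They were present in 5 of 9 4-cell cells with such a score, where the 9 include the 4 cells described apart. In mid-S they were present in 1 of 28 and 2 of 18 cells. These counts include cells with the whole chromosome replicated. Some of the stretches recurred at 2 places. One place spanned 24240001 to 39440000, 24160001 to 39600000 and 24400001 to 41760000 in 3 cells of 8-cell embryo 4, 22160001 to 39520000 in a cell of 8-cell embryo 7, and 23920001 to 39680000 and 23840001 to 39360000 in cells of 4-cell embryos 12 and 6. The other spanned 161600001 to 178080000 and 162400001 to 178080000 in 8-cell embryo 4, 162000001 to 178080000 in 8-cell embryo 3, 162160001 to 178160000 in 8-cell embryo 5 and 159600001 to 177760000 in 4-cell embryo 6. These spans hold the early domains around Lmx1b and around Sall4.

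In a few cells with a score over 70 the states did not follow the mean profile. The sixth cell of 8-cell embryo 3 had 86.9% of chromosome 2 replicated at a score of 87.7, and its states correlated with the mean profile of the other embryos at r = -0.21. The first cell of 8-cell embryo 9 had 79.3% at a score of 94.3 and r = -0.12. The median r was 0.43 in 8-cell cells with a score over 70, of which 2 were fully replicated and had none, and 0.78 in 8-cell mid-S cells.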
